A study of Mus musculus with 38 samples.

Results

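The nuclear-encoded subunits of oxidative phosphorylation were taken as all genes whose symbol begins with Ndufa, Ndufb, Ndufc, Ndufs, Ndufv, Uqcr, Cox4, Cox5, Cox6, Cox7, Cox8 or Atp5. By this rule 88 of the 23475 genes used from the bulk table were members. Of these, 36 are subunits of complex I, 8 of complex III, 19 of complex IV and 15 of complex V, and 10 are assembly factors or other proteins that share the symbols (Ndufaf1 to Ndufaf7, Cox7a2l, Atp5s and Atp5sl). The rule reads gene symbols and no measured values.

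Cells of the E14 line, mouse embryonic stem cells (mESCs) grown without feeders in 2i medium with LIF (2i/L), were moved to basal N2B27 medium with 0.25 µM all-trans retinoic acid (RA), and no genetic change was made in any group. Bulk libraries were made from mESCs (2 libraries), from whole cultures after 6 h to 96 h of RA (1 library for each of 9 times), and from cells sorted on the surface proteins CD24 and PDGFRA. At 48 h, PDGFRA- cells were split into CD24 quartiles (Q1 to Q4), and at 72 h into CD24 terciles (T1 to T3) beside PDGFRA+/CD24- cells. At 96 h, ectoderm-like (PDGFRA-/CD24+) and XEN-like (PDGFRA+/CD24-) cells were sorted as 2 libraries each, where XEN stands for extraembryonic endoderm. Further libraries came from 1 ectoderm-like culture after 5 passages and 1 XEN-like culture after 3 weeks, both derived from sorted cells and kept without RA in N2B27 with EGF and FGF2, the latter as floating aggregates. Single cells were profiled by SCRB-seq at 9 times and by SMART-seq2 at 4 times, each time point from 1 culture. SCRB-seq and the bulk libraries count unique molecular identifiers (UMIs), tags by which each captured RNA molecule is counted once.

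Oxidative phosphorylation runs in the inner mitochondrial membrane. Complex I takes electrons from NADH and hands them to ubiquinone, complex III passes them on to cytochrome c, complex IV gives them to oxygen, and complex V, the ATP synthase, uses the proton gradient that results. Most subunits are encoded in the nucleus, and several complex IV subunits exist as paralogues of which one is used in most tissues and another in muscle, testis or lung. Pluripotent cells in culture are known to use both glycolysis and respiration, and the balance shifts between pluripotent states and during differentiation.

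The bulk libraries held between 1063809 and 2459424 UMIs, of which 32998 to 85114 belonged to members. Summed over the 25 libraries, complex V held 33.7% of the members' UMIs, complex I 27.7%, complex IV 27.1%, complex III 9.89% and the assembly factors and other proteins 1.56%. The levels below are CPM, a gene's UMIs after scaling the library to 1000000 UMIs. In the sorted XEN-like libraries 12 pluripotency markers kept a summed level of 6267 and 4524 CPM, against 790 and 432 CPM in the sorted ectoderm-like libraries and 13436 and 18354 CPM in mESCs. The 11 XEN markers summed to 12050 and 6665 CPM in sorted XEN-like cells, and to 485 and 1779 CPM in sorted ectoderm-like cells. All 11 XEN markers were detected in these 4 libraries, and at least 9 of the 11 ectoderm markers. The part that pluripotency markers in the XEN-like libraries play in the results below was not tested. In bulk libraries, fewer cells that express a gene and less of its RNA per cell cannot be told apart.

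In the UMI counts of the bulk libraries, the most abundant members were small or accessory subunits. In complex IV these were Ndufa4, which was first assigned to complex I, with a mean over all libraries of 1918 CPM, Cox7c with 1522 CPM and Cox4i1 with 1118 CPM. In complex V the highest means were those of Atp5j (977 CPM), Atp5h (967 CPM) and Atp5l (957 CPM). Complex III was led by Uqcrb (862 CPM), Uqcr10 (716 CPM) and Uqcrh (580 CPM), and complex I by the accessory subunits Ndufc1 (626 CPM), Ndufb4 (509 CPM) and Ndufa5 (449 CPM). Among the other proteins, Cox7a2l, which holds respiratory supercomplexes together, had 259 CPM, and the assembly factors Ndufaf2 and Ndufaf4 had 84.9 and 57.2 CPM. These values count 3′ ends, so that they do not depend on the length of the RNA. In the SMART-seq2 cells of 0 h, where RPKM values are per length, Ndufa4 again had the highest mean (2220 for a cell's RPKM scaled to a sum of 1000000, 82 cells), followed by the catalytic ATP synthase subunit Atp5b (1892) and Cox4i1 (1621). Below these the order differed from the UMI counts. Cox7c had 228, and in complex V Atp5a1 (969) and Atp5c1 (890) stood above Atp5h (725), Atp5l (691) and Atp5j (483).

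Most of the tissue-restricted paralogues among the members had low levels. Cox8b, the muscle form of subunit VIII, had 0 UMIs in each of the 25 libraries. The muscle form Cox6a2 reached 11 UMIs at most, the hypoxia-linked Ndufa4l2 10 UMIs, and Cox4i2, the lung form of subunit IV, 4 UMIs. Cox8c, a testis form, had 6 UMIs at 24 h, 9 at 36 h, 16 at 48 h and 3 at 60 h, 1 at 6 h and 0 in the other libraries of the time course. In the CD24 quartiles of 48 h Cox8c had 5, 3, 3 and 5 UMIs. Cox7b2, another testis form, had 25 and 3 UMIs in the mESC libraries. By contrast Cox7a1, the heart and muscle form of subunit VIIa, and Cox6b2, the testis form of subunit VIb, were clearly present in mESCs and are followed below.

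Promoter sequences of RefSeq (assembly GRCm38.p6) were read for windows from 250 bases before to 50 bases after each annotated start. All 88 members matched a RefSeq gene, 85 by symbol and 3 by an older symbol, and 73 had a window. The first pair of sequences is shown because the members in question are paralogues, of which one was lower and the other level after RA: Cox7a1 (chr7:30183921-30184220, + strand) and its widely used counterpart Cox7a2 (chr9:79759804-79760103, - strand).
Cox7a1: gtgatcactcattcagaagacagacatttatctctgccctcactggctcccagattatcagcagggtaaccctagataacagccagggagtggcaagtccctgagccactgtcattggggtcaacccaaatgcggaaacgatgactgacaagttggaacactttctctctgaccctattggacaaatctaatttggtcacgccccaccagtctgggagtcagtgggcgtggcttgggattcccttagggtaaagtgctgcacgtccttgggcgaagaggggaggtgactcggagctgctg
Cox7a2: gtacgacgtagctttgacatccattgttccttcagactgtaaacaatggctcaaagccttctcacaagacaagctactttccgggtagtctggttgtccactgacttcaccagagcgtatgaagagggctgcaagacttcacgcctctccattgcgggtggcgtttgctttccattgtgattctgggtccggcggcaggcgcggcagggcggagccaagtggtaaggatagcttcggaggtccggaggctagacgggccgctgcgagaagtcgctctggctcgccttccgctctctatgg
Each sequence covers the promoter and the start of the transcript and is printed 5′ to 3′ along the gene. Neither window holds any of 3 motifs of factors known for their role in nuclear genes of respiration, which were searched on both strands as GCATGCGC for NRF1, CCGGAAGT for the ETS factors to which GABPA belongs, and AAGATGGC for YY1.

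Another 3 windows are shown because they hold 1 of these motifs each, printed in capitals. They belong to subunits of complex V, namely Atp5k (chr5:108434350-108434649, - strand, NRF1), Atp5h (chr11:115419870-115420169, - strand, ETS) and Atp5j2 (chr5:145191492-145191791, - strand, YY1).
Atp5k: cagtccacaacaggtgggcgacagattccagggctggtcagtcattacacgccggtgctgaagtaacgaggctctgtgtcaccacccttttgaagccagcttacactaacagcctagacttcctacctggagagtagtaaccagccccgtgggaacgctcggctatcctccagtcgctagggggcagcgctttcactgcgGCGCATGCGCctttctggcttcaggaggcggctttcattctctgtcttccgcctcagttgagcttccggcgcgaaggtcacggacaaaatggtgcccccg
Atp5h: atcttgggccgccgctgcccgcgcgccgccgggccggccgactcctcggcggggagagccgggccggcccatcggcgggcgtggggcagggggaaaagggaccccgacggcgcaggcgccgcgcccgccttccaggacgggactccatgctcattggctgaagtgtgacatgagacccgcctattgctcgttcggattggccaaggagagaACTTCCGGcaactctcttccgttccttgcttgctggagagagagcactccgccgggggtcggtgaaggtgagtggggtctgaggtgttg
Atp5j2: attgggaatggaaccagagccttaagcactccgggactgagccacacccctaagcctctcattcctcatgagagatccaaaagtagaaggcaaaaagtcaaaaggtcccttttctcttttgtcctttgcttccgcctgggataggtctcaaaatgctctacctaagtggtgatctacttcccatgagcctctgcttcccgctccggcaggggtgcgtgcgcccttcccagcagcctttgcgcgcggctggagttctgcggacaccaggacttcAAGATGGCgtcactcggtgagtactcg
In Atp5k the NRF1 letters read on both strands, from positions -48 and -50 relative to the start, and the capitals cover both matches. In Atp5h the ETS letters lie on the opposite strand at position -39, and in Atp5j2 the YY1 letters begin 24 bases into the transcript. The NRF1 letters were found in 11 of the 73 members with a window (15.1%) and in 3.05% of all 27025 genes with one. For the YY1 letters the shares were likewise 11 of 73 (15.1%) and 3.19% of all genes, and for the ETS letters 5 of 73 (6.85%) and 4.31%. All genes with a window were counted whatever their expression, so that the shares are not matched for level. In all, 26 members held at least 1 of the motifs, and Uqcr11 held both the NRF1 and the ETS letters. Members with the NRF1 letters were Atp5l, Atp5k, Atp5g2, Ndufa11, Ndufa6, Uqcr11, Cox6a1, Ndufa8, Uqcrc1, Ndufaf4 and Ndufaf5. A match of letters is a description of the sequence and no evidence that a factor was bound.

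Over the 96 h of RA the members' summed share of UMIs stayed close to its level at 0 h in the whole cultures. It was 3.48% and 3.71% at 0 h, 3.36% at 6 h, 3.37% at 12 h, 3.30% at 24 h, 3.39% at 36 h, 3.38% at 48 h, 3.57% at 60 h, 3.34% at 72 h, 3.31% at 84 h and 3.39% at 96 h. The whole range of the RA-treated cultures was thus little wider than the gap between the mESC libraries. Over the 10 time points Pearson's r of the share with time was -0.11 (two-sided permutation test, p = 0.774, Benjamini-Hochberg adjusted over 5 relations 0.966), Spearman's rho was -0.10 (p = 0.785, adjusted 0.785), and r was 0.091 without the 2 times farthest from the median time. In the same libraries the share of cytosolic ribosomal protein genes went from 32.4% at 0 h to 25.1% at 96 h. With these genes left out of the library totals, the log2 ratio of the members' share at 96 h to that at 0 h was -0.19 instead of -0.04. On these totals the share was 5.15% and 5.61% in the mESC libraries and 4.52% to 5.08% after RA, all below mESCs, and r was -0.66 (permutation test, adjusted p = 0.0654).

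The share of complex III was highest at 0 h (0.375%) and lowest at 84 h (0.307%), with r = -0.73 (permutation test, p = 0.0153, adjusted p = 0.0763) and rho = -0.83 (p = 0.00451, adjusted p = 0.0226), and r = -0.81 without the 2 farthest times. Complex I ranged from 0.868% at 6 h to 1.034% at 60 h (r = 0.57, permutation p = 0.0849, adjusted 0.152, rho = 0.62, p = 0.0609, adjusted 0.152, r without the 2 farthest times 0.69). Complex V ranged from 1.091% at 72 h to 1.194% at 12 h (r = -0.57, permutation p = 0.0914, adjusted 0.152, rho = -0.52, p = 0.134, adjusted 0.224, r without the 2 farthest times -0.66). For complex IV, which ranged from 0.888% at 24 h to 1.008% at 60 h, r was 0.015 (permutation p = 0.966, adjusted 0.966), rho -0.12 (p = 0.760, adjusted 0.785) and r without the 2 farthest times 0.16, and its sign changed with other totals or another library for 0 h. Of these complexes only III passed the threshold after adjustment, by rank and not by Pearson's r. Without ribosomal protein genes in the totals, complex III and complex V both passed by Pearson's r (-0.83 and -0.85, permutation test, adjusted p = 0.00778 each). Each time point is 1 culture, and medium was renewed at 48 h.

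**Figure D1:**
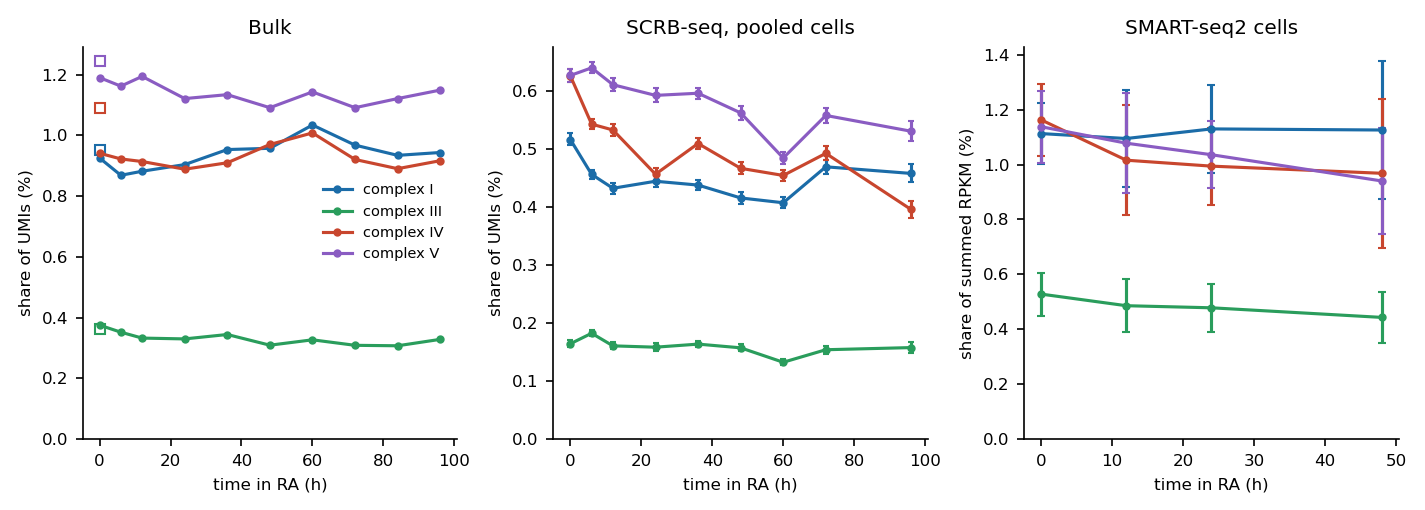
Share of all UMIs (bulk and SCRB-seq) or of summed RPKM (SMART-seq2) taken by the members of complexes I, III, IV and V against time in RA in hours; open squares mark the second mESC library, bars are 95% Wilson intervals in SCRB-seq and the SD over cells in SMART-seq2. Bulk totals leave out Rn45s and SCRB-seq totals include it. The bulk lines are nearly flat, with complex III going from 0.375% at 0 h to 0.328% at 96 h, while the SCRB-seq line of complex IV goes from 0.626% to 0.396%.

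Single members were more varied than the sum. Among the 73 members with a mean of over 50 CPM, the highest level of the 10 time points was a median of 1.40 times the lowest, 49 members stayed under 1.5 times, and 3 reached 2 times or more. The steadiest were Atp5g3, with 575 to 655 CPM, Atp5h, with 928 to 1084 CPM, and Atp5o, with 840 to 984 CPM, all of the ATP synthase. The 3 widest were Cox6b2 (43.2 to 126 CPM), the complex I subunit Ndufa2 (202 to 417 CPM) and Atp5g1 (593 to 1208 CPM). Here 0 h is the first mESC library alone, on which the highest levels of Cox6b2 and Atp5g1 rest.

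At 96 h against 0 h, 1 of the 78 members that reached 50 UMIs in either library was at least 2-fold higher and 2 were at least 2-fold lower, where 22% of all 4600 genes of that depth were higher and 8.28% lower by that much. The 2 were Cox7a1, with 153 UMIs (66.9 CPM) at 0 h and 22 UMIs (11.3 CPM) at 96 h, and Cox6b2, with 288 UMIs (126 CPM) and 118 UMIs (60.5 CPM). Cox7a1 was thus lower 5.94-fold (95% interval of counting error 3.78 to 9.75) and Cox6b2 2.08-fold (1.68 to 2.60). Next in size were Atp5g1 (1.89-fold lower), Ndufb4 (1.79-fold lower) and Cox5a (1.67-fold lower). The member above 2-fold was the complex I assembly factor Ndufaf7, with 13.6 CPM at 0 h and 39.98 CPM at 96 h (2.95-fold higher, 1.92 to 4.63). It was followed by Ndufb11 (1.89-fold higher), Ndufa2 (1.68-fold), the Rieske iron-sulfur protein Uqcrfs1 (1.58-fold) and Ndufab1 (1.57-fold). The median log2 ratio was -0.05 over these members and 0.22 over all genes of that depth. Between the mESC libraries, no member of 78 was 2-fold higher or lower in the second, against 4.58% of genes higher and 4.33% lower. After 6 h, 0 of 77 members were 2-fold higher (1.8% of all genes) and 1 was lower (1.78%), namely Cox6b2, with 52.3 CPM. The next lowest ratios to 0 h were those of Ndufa10 (0.673), Ndufa13 (0.695), Cox7a1 (0.716) and Ndufa8 (0.717), and the highest those of Ndufaf4 (1.43), Ndufa5 (1.28), Ndufa4 (1.22), Cox6c (1.20) and Atp5sl (1.19). The ratios to 0 h use the first mESC library alone. With 1 library at each RA time they have no replicate check, and the intervals cover counting error only.

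The paralogue pairs of complex IV and the 3 genes of the ATP synthase ring subunit took different courses in the same libraries. Cox7a1 stood at 66.9 and 92.7 CPM at 0 h, at 47.9 CPM at 6 h, 51.1 at 12 h, 63.3 at 24 h, 43.6 at 36 h, 27.2 at 48 h, 19.2 at 60 h, 12.5 at 72 h, 10.4 at 84 h and 11.3 at 96 h. Its widely used counterpart Cox7a2 stayed between 560 CPM at 36 h and 676 CPM at 96 h. As a share of the UMIs of both, Cox7a1 made up 10.3% and 12.7% in mESCs and 1.64% at 96 h. Cox6b2 reached its lower level earlier, with 126 and 117 CPM in mESCs, 52.3 CPM at 6 h, 46.7 at 12 h and 43.2 to 60.5 CPM from 24 h on. Its counterpart Cox6b1 had 959 and 1249 CPM in mESCs, 674 CPM at 36 h and 975 CPM at 96 h. Of the ring subunit genes, which encode the same mature protein, Atp5g1 went from 1208 and 926 CPM in mESCs to 664 CPM at 48 h and 638 CPM at 96 h. Atp5g2 had 576 and 771 CPM in mESCs and 597 CPM at 96 h, and Atp5g3 had 636, 649 and 640 CPM. Atp5g1 made up 49.9% and 39.5% of the UMIs of the 3 genes in mESCs and 34% at 96 h.

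**Figure D2:**
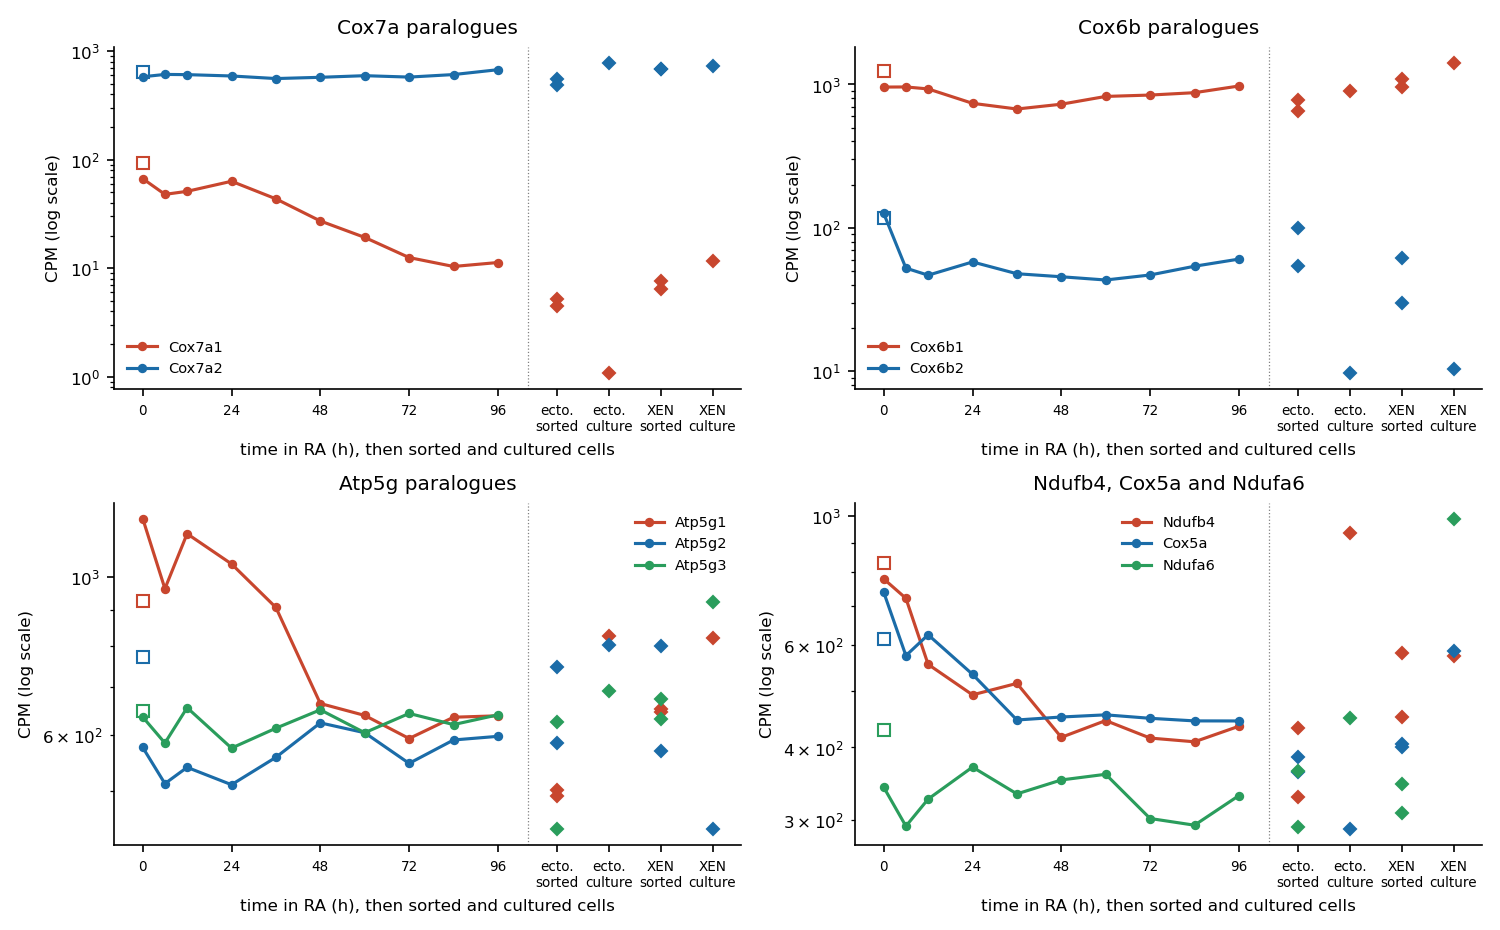
Level in CPM (log scale) of the Cox7a, Cox6b and Atp5g paralogues and of Ndufb4, Cox5a and Ndufa6 against time in RA in hours, followed by the sorted and cultured cells; open squares are the second mESC library and diamonds single libraries. Cox7a1 goes from 66.9 CPM at 0 h to 11.3 CPM at 96 h while Cox7a2 stays between 560 and 676 CPM, and Cox6b2 is at 9.64 and 10.4 CPM in the cultures.

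At 96 h the members' share was lower in the sorted ectoderm-like cells than in mESCs and in sorted XEN-like cells. It was 2.93% and 3.27% in the ectoderm-like libraries (mean 3.10% ± 0.24, SD, n = 2), 3.39% and 3.80% in the XEN-like libraries (3.60% ± 0.29) and 3.48% and 3.71% in mESCs (3.59% ± 0.16). The ectoderm-like libraries thus lay below the 4 others, and the XEN-like libraries lay around the mESCs. With ribosomal protein genes left out of the totals the lineages overlapped, with 4.09% and 4.78% in ectoderm-like and 4.57% and 5.37% in XEN-like libraries, and the log2 ratio between them was 0.16. The mESC libraries then had 5.15% and 5.61%. Both ectoderm-like libraries and 1 XEN-like library lay below these, and the other XEN-like library lay between them. On totals that include ribosomal protein genes, XEN-like cells had 1.16 times the share of ectoderm-like cells (log2 ratio 0.21). On the same totals ectoderm-like cells had 0.863 times the share of mESCs (log2 ratio -0.21), and XEN-like cells 0.999 times that of mESCs. An exact permutation test of 2 libraries against 2 cannot give a two-sided p below 0.33, which is the value for both of the former comparisons, and it gave 1 for the latter. Each library of a lineage differed from the other by a ratio of 1.12.

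By complex, the XEN-like cells had 1.13 times the ectoderm-like share for complex I, 1.20 times for complex III, 1.16 times for complex IV and 1.19 times for complex V, with no overlap between the libraries in any of these (exact permutation p = 0.33 each). The assembly factors and other proteins went the other way, with 0.825 times, and did not overlap either. Against mESCs the ectoderm-like share was 0.940 times for complex I, 0.805 times for complex III, 0.822 times for complex IV and 0.843 times for complex V. The libraries of each of these comparisons were apart. The share of cytosolic ribosomal protein genes was 33.2% ± 1.15 in mESCs, 29.9% ± 2.22 in the ectoderm-like lineage and 27.5% ± 2.48 in the XEN-like one (SD, n = 2). That of the 76 mitochondrial ribosomal protein genes was 0.844% ± 0.0857, 0.819% ± 0.00816 and 0.878% ± 0.0290.

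**Figure D3:**
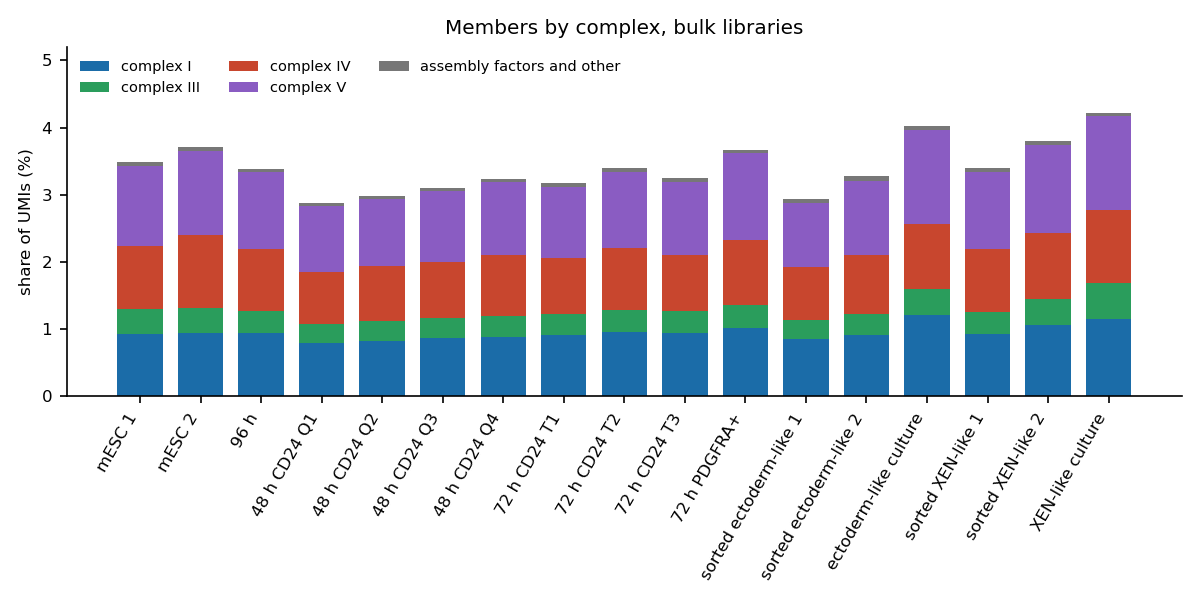
Share of all UMIs in percent taken by the members, stacked by complex, in 17 bulk libraries. The sorted ectoderm-like libraries (2.93% and 3.27%) are below the sorted XEN-like libraries (3.39% and 3.80%), and on these totals, which include ribosomal protein genes, both cultures are above all others, at 4.03% and 4.22%.

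Gene by gene, 82 members had enough UMIs to be tested, and Cox7b2, Cox8b, Cox6a2, Cox4i2, Ndufa4l2 and Cox8c did not. In sorted ectoderm-like cells against mESCs, 13 of the 82 members were lower and none was higher at an adjusted p under 0.05 (edgeR quasi-likelihood test with Benjamini-Hochberg adjustment), where 9.27% of all 8945 genes were lower and 9.82% higher. At an unadjusted p under 0.05, 30 members passed, and DESeq2 called 14 lower and none higher. The strongest was Cox7a1, with 66.9 and 92.7 CPM in mESCs and 4.45 and 5.17 CPM (8 UMIs each) in ectoderm-like cells, a log2 fold change of -4.36 ± 0.40 (SE, edgeR adjusted p = 3.69e-05). Complex IV gave 4 further genes. Cox5a went from 740 and 615 CPM to 363 and 385 CPM (log2 fold change -1.16 ± 0.24, edgeR adjusted p = 0.00537), Cox8a from 850 and 988 CPM to 457 and 569 CPM (-1.15 ± 0.25, 0.00766), Cox6a1 from 284 and 364 CPM to 185 and 213 CPM (-1.02 ± 0.26, 0.0188), and Cox6b1 from 959 and 1249 CPM to 658 and 782 CPM (-0.93 ± 0.27, 0.0308). None of these genes overlapped between the groups, which adds no support, since the test on the same libraries had picked them.

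In the other complexes, Atp5g1 went from 1208 and 926 CPM in mESCs to 492 and 501 CPM in ectoderm-like cells (log2 fold change -1.41 ± 0.24, edgeR adjusted p = 0.00203) and the complex I subunit Ndufb4 from 780 and 831 CPM to 328 and 432 CPM (-1.39 ± 0.28, 0.00508). Uqcr10, a small subunit of complex III, went from 959 and 979 CPM to 601 and 551 CPM (-1.06 ± 0.26, 0.0143), and Ndufv3, an accessory subunit of complex I, from 199 and 316 CPM to 168 and 161 CPM (-0.97 ± 0.29, 0.0370). Ndufaf3, which helps to assemble complex I, had 20.1 and 39.6 CPM in mESCs and 11.7 and 14.9 CPM in ectoderm-like cells (-1.49 ± 0.43, 0.0296). The remaining 3 of the 13 were Ndufs8, Uqcrq and Atp5b, with log2 fold changes of -0.88, -0.83 and -0.79. By complex, 3 of 36 members of complex I, 2 of 8 of complex III, 5 of 13 of complex IV, 2 of 15 of complex V and 1 of the 10 others fell. Of all 82, 74 had a negative fold change, and the median log2 fold change was -0.46, against 0.05 over all genes tested. On plain CPM, without the TMM factors that edgeR uses to scale libraries, these medians were -0.15 and 0.33, and 6 members were lower. The count was 5 without the second mESC library, 2 without the first ectoderm-like library and 5 without the second. Cox7a1 and Atp5g1 were called under each of the 12 settings run.

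In sorted XEN-like cells against mESCs, 6 of 82 members were lower and 1 was higher by the same test, where 10.5% of all genes were lower and 12.3% higher. Cox7a1 had 7.62 and 6.38 CPM in XEN-like cells (log2 fold change -3.71 ± 0.38, edgeR adjusted p = 0.000102). Cox6b2 went from 126 and 117 CPM to 29.97 and 62 CPM (-1.61 ± 0.43, 0.0185), Cox5a to 405 and 400 CPM (-0.95 ± 0.24, 0.0138), and Atp5g1 to 653 and 645 CPM (-0.91 ± 0.24, 0.0170). The other 2 that fell are complex I assembly factors, Ndufaf3 (-1.55 ± 0.44, 0.0243) and Ndufaf5 (-1.18 ± 0.36, 0.0341). The member that rose was another assembly factor of complex I, Ndufaf7, with 13.6 and 14.4 CPM in mESCs and 27.9 and 48.3 CPM in XEN-like cells (1.23 ± 0.39, 0.0416). By DESeq2 1 was higher and 4 were lower, and at an unadjusted p under 0.05 in edgeR 13 passed. The median over members was -0.19 and over all genes -0.06. On plain CPM the member median was 0.0094, with the other sign, and the calls became 5 higher and 4 lower. The count of 7 was 3 without the first mESC library, 4 without the second and 2 without the first XEN-like library. Cox7a1 was called under each of the 12 settings.

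Between the sorted lineages, 1 of 82 members was higher in XEN-like cells and none was lower, where 6.98% of all genes were higher and 5.71% lower. This was Cox6a1, the widely used form of subunit VIa, with 185 and 213 CPM against 348 and 352 CPM (log2 fold change 0.92 ± 0.26, edgeR adjusted p = 0.0409), and it was not called without any 1 of the 4 sorted libraries. At an unadjusted p under 0.05, 11 members passed, and DESeq2 called 1. The direction was shared: 66 of 82 fold changes were positive, 29 of 36 in complex I, 7 of 8 in complex III, 12 of 13 in complex IV and 15 of 15 in complex V, but 3 of 10 among the assembly factors and other proteins. The median log2 fold change was 0.32 over members and -0.06 over all genes, and on plain CPM 0.20 and -0.17. Subunits of a complex share libraries, so the count of directions is not a set of independent tests. Libraries of 1 lineage gave like counts on plain CPM. In the second library, 57 of 74 members were higher for ectoderm-like cells (median log2 ratio 0.14, all genes -0.10). For XEN-like cells 61 of 75 were higher (0.18, all genes -0.13). The count of directions is thus not particular to the difference between lineages. The contrasts with mESCs share the same mESC libraries.

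**Figure D4:**
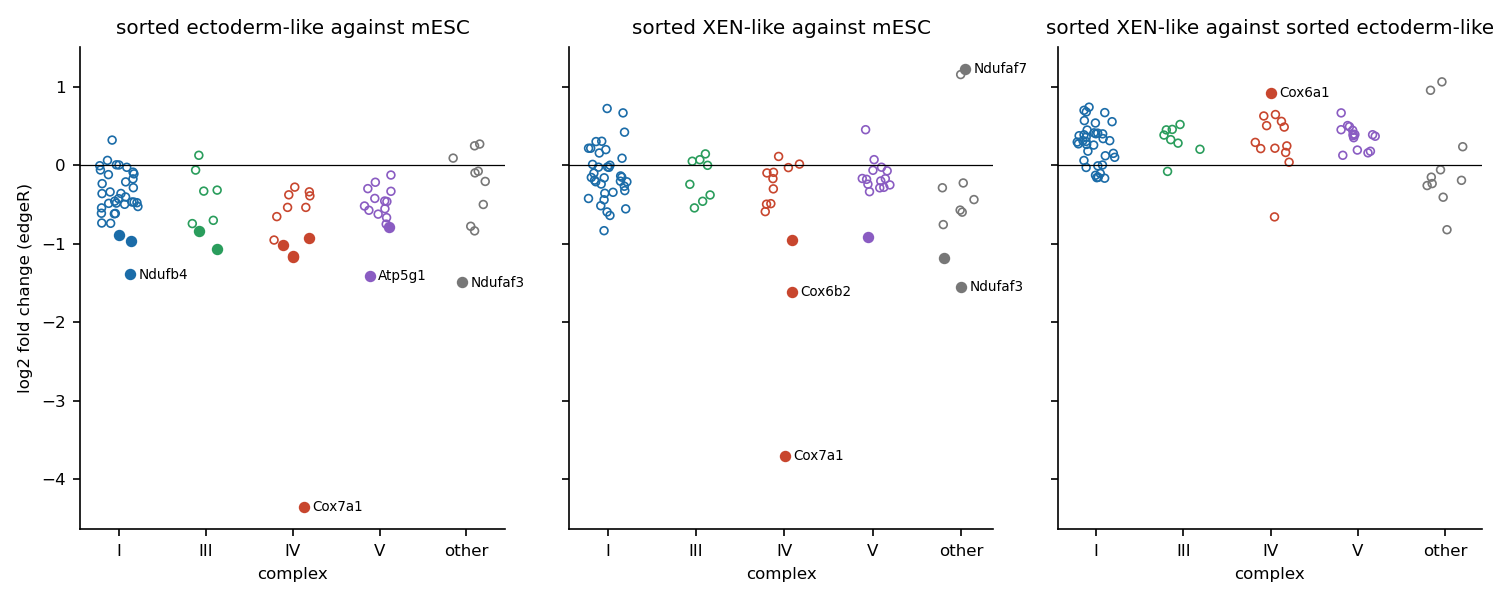
Log2 fold change (edgeR) of the 82 tested members, 1 point each, by complex, in the 3 comparisons of sorted cells and mESCs; filled points passed an adjusted p of 0.05. Of the 82, 74 are below 0 for ectoderm-like cells against mESCs, with Cox7a1 at -4.36, and 66 are above 0 for XEN-like against ectoderm-like cells.

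Other genes of respiration were read from the same fits, where 9.27% of all genes were lower and 9.82% higher in ectoderm-like cells, and 10.5% and 12.3% in XEN-like cells, each against mESCs. Against mESCs the median log2 fold changes in ectoderm-like cells, where all genes tested had 0.05, were -0.25 for complex II, -0.30 for the tricarboxylic acid cycle, -0.62 for transport, -0.17 for assembly factors and 0.06 for regulators of biogenesis. In XEN-like cells, where all genes had -0.06, they were 0.14, -0.17, -0.23, -0.31 and -0.17. Complex II, which feeds electrons from succinate, had 0 of 4 genes past the threshold in each comparison (edgeR quasi-likelihood test, with 0, 1 and 1 at an unadjusted p under 0.05 in the order above, and 0 by DESeq2). Cytochrome c (Cycs) and the complex III subunit Cyc1 likewise gave 0 of 2, with 0 at an unadjusted p under 0.05 and 0 by DESeq2. Among 16 genes of the tricarboxylic acid cycle and pyruvate dehydrogenase, 3 fell in ectoderm-like cells against mESCs (18.8%), namely Pdhb (log2 fold change -1.31), Idh3a (-1.07) and Pdha1 (-0.92), and in XEN-like cells Suclg2 rose (1.12) and Ogdh fell (-0.95). DESeq2 gave the same numbers in both comparisons. Of 6 genes for transport of nucleotides and ions, the outer membrane channel Vdac1 fell in ectoderm-like cells (-1.19), and the adenine nucleotide carrier Slc25a4 rose in XEN-like cells (1.10).

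Of 24 assembly factors tested outside the member list, the copper chaperone Cox17 fell in ectoderm-like cells (log2 fold change -1.38) and was higher in XEN-like than in ectoderm-like cells (1.06). Nubpl, needed for complex I, had 54.7 and 16.1 CPM in mESCs, 7.78 and 9.69 CPM in ectoderm-like cells and 6.09 and 11.8 CPM in XEN-like cells (log2 fold changes -2.31 and -2.23). Without the first mESC library these were -1.25 and -1.17 and did not pass (edgeR adjusted p = 0.147 and 0.174). Tmem70, needed for complex V, had a log2 fold change of 1.04 in ectoderm-like cells (edgeR adjusted p = 0.0464), which DESeq2 did not call (adjusted p = 0.239) and which passed in 0 of 6 fits that left out 1 library. Of 11 regulators of mitochondrial biogenesis tested, Gabpa (-1.36) and the mitochondrial DNA-binding protein Ssbp1 (-0.89) fell in XEN-like cells, of which DESeq2 called Ssbp1 alone. Without the first mESC library the fold change of Ssbp1 was -0.59 (edgeR adjusted p = 0.256). In the other comparisons 0 regulators passed by edgeR and by DESeq2, with 1 and 0 at an unadjusted p under 0.05. Of the 76 mitochondrial ribosomal protein genes, 6 fell in ectoderm-like cells (7.89%, median log2 fold change -0.34) and 8 in XEN-like cells (10.5%, -0.22), near the shares of all genes, and DESeq2 called 4 in each. Among them, Mrps18b fell in ectoderm-like cells (-1.60) and was higher in XEN-like than in ectoderm-like cells (1.02). The 95 cytosolic ribosomal protein genes tested had medians of -0.45 (ectoderm-like) and -0.47 (XEN-like) against mESCs, with 7 and 13 that fell and 1 and 2 that rose. Of the calls named here, those of Cox17 and Mrps18b in ectoderm-like cells against mESCs passed in each of the 6 fits that left out 1 library, and each of the others was lost in at least 1 of them. Calls given without DESeq2 or a left-out library came from the edgeR fit over all genes.

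Before the lineages were sorted apart at 96 h, the CD24 and PDGFRA gates gave shares of 2.87%, 2.98%, 3.10% and 3.24% in Q1 to Q4 at 48 h, 3.17%, 3.39% and 3.25% in T1 to T3 at 72 h, and 3.67% in PDGFRA+ cells at 72 h. The shares at 48 h thus followed the CD24 signal, those of the terciles did not, and the PDGFRA+ library was above all terciles. The ratio of Q4 to Q1 was 1.13 (log2 ratio 0.17, 95% interval of counting error 0.15 to 0.19) and that of PDGFRA+ to T3 was 1.13 (0.18, 0.16 to 0.19), both about as large as the ratio of 1.12 between libraries of 1 lineage at 96 h. All complexes shared the direction in Q4 against Q1, with log2 ratios of 0.15 for complex I, 0.14 for complex III, 0.23 for complex IV and 0.16 for complex V. The share of cytosolic ribosomal protein genes was 29% in Q1 and 31.8% in Q4. In Q4 the pluripotency markers summed to 4292 CPM and in Q1 to 6664 CPM, and their part in the difference was not tested.

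Of the 76 members with enough UMIs, 0 were 2-fold higher and 1 was 2-fold lower in Q4 than in Q1, where 2.1% of all genes were higher and 3% lower. This was Cox7b2, the testis form of subunit VIIb, with 38.1, 37.8, 41.4 and 16.4 CPM in Q1 to Q4 (57, 53, 44 and 26 UMIs), a ratio of Q4 to Q1 of 0.431 (0.260 to 0.696). Thus Q4 alone was low. In the whole culture of 48 h, Cox7b2 had 8.54 CPM, and its highest level in the time course was 15.9 CPM at 24 h. The next lowest in Q4 were Uqcrc1 (ratio 0.790), Ndufs1 (0.799), Ndufs3 (0.812) and Ndufaf4 (0.841), whose intervals include 1. The largest ratios upward were those of Ndufa12 (1.49), Ndufaf2 (1.40), Ndufa1 (1.38), Ndufb6 (1.38) and Ndufa4 (1.34). In all, 61 of 76 members were higher in Q4, with a median log2 ratio of 0.13 against 0.03 over all genes. Between libraries of 1 lineage at 96 h, 57 of 74 and 61 of 75 members were higher in the second.

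In the 72 h terciles, Cox7a1 had 42 CPM in T1, 15.0 in T2 and 7.68 in T3 (54, 17 and 10 UMIs), and the pluripotency markers summed to 4643, 1983 and 1314 CPM in the same order. In the 48 h quartiles Cox7a1 was between 42.9 and 48.8 CPM. In PDGFRA+ cells, however, it stood at 19.8 CPM while the pluripotency markers summed to 7169 CPM. PDGFRA+ against T3 cells had 0 of 74 members 2-fold higher (12.7% of all genes) and 1 lower (10.1%). The latter was Cox6b2, with 28.7 against 59.9 CPM (ratio 0.479, 0.317 to 0.712), and Ndufaf2 (0.670), Ndufb10 (0.758), Ndufab1 (0.775) and Ndufs3 (0.814) came next. The highest ratios were those of the complex I subunit Ndufs5 (1.92), Cox6a1 (1.87), the iron-sulfur subunit Ndufs8 (1.82), Cox8a (1.57) and Cox6b1 (1.54). Here 52 of 74 members were higher, and the median log2 ratio was 0.14 against -0.08 over all genes. This is a smaller part than between libraries of 1 lineage at 96 h (57 of 74 and 61 of 75). GEO's labels give a barcode for the time course and the 96 h libraries and none for the second mESC library and the 48 h and 72 h sorted ones, so that the values of other libraries set beside these gates carry no test.

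Both cultures derived from sorted cells had the largest shares of all bulk libraries on totals that include ribosomal protein genes. Without these genes the second mESC library was highest (5.61%), and the cultures had 5.43% (ectoderm-like) and 5.08% (XEN-like). The share was 4.03% in the ectoderm-like culture and 4.22% in the XEN-like culture, a log2 ratio of 0.07 (95% interval of counting error 0.051 to 0.082), while ribosomal protein genes took 25.8% and 17%. With these genes left out of the totals the ratio changed its sign, to -0.10. The cultures differed by complex: complex III took 0.392% against 0.538% (ectoderm-like culture first) (log2 ratio 0.46, 0.41 to 0.50), complex IV 0.968% and 1.092% (0.17, 0.14 to 0.20), complex I 1.205% and 1.150% (-0.067, -0.096 to -0.038) and complex V 1.402% and 1.392% (-0.010, -0.037 to 0.016). The XEN markers summed to 2235 CPM in the ectoderm-like and to 10098 CPM in the XEN-like culture. The ectoderm markers summed to 1653 CPM and 1552 CPM, against 611 and 323 CPM in the sorted XEN-like libraries. The part of these markers in the results on cultures was not tested. Each culture is 1 library, and passage, time and growth form differ between them together with lineage and cannot be told apart.

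Between the cultures, 2 of 75 members were 2-fold higher in the XEN-like one and 2 were 2-fold lower, where 19.5% of all genes were higher and 24.9% lower. Higher were the complex I subunit Ndufa6, with 991 CPM against 449 CPM (2.21-fold, 2.02 to 2.40), and Cox5a, with 586 against 289 CPM (2.03-fold, 1.82 to 2.26). Ndufa1 (1.94-fold), Uqcrh, the hinge protein of complex III (1.79-fold), and Cox6a1 (1.77-fold) followed. The 2 lower ones were the assembly factors Ndufaf2, with 24.8 against 149 CPM (0.166, 0.114 to 0.236), and Ndufaf7, with 16.6 against 55.1 CPM (0.300, 0.184 to 0.472). Another assembly factor, Ndufaf5 (0.512), came next, then Ndufs8 (0.538) and Atp5g2 (0.553). The median log2 ratio was 0.15 over members and -0.28 over all genes.

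Against the sorted cells of its lineage, the ectoderm-like culture had 1.30 times their pooled share (1.37 times for complex I, 1.33 for complex III, 1.17 for complex IV and 1.37 for complex V), and 1.23 times without ribosomal protein genes in the totals. In it, 4 of 76 members were at least 2-fold higher and 1 was lower, where 16.6% of all genes were higher and 12.6% lower. The 4 were Ndufs8 (404 CPM against 141 CPM in the pooled sorted libraries, 2.86-fold), Ndufaf7 (55.1 against 20.9 CPM, 2.64-fold), Ndufb4 (934 against 376 CPM, 2.48-fold) and Cox8a (1191 against 509 CPM, 2.34-fold), and Uqcrq was next (1.99-fold). The member that was lower was Cox6b2, with 18 UMIs (9.64 CPM) against 75.6 CPM (7.84-fold lower, 4.86 to 13.4), followed by Ndufaf4 (1.99-fold lower), Ndufs1 (1.39-fold), Cox5a (1.29-fold) and Cox7a2l (1.28-fold). The median log2 ratio was 0.39 over members and -0.02 over all genes.

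The XEN-like culture had 1.19 times the pooled share of sorted XEN-like cells, with the largest ratio for complex III (1.54, against 1.18 for complex I, 1.14 for complex IV and 1.15 for complex V). Without ribosomal protein genes in the totals it was 1.05 times, and these genes took 27% of UMIs in the pooled sorted cells and 17% in the culture. In it, 3 of 75 members were at least 2-fold higher and 3 lower, where 19.8% of all genes were higher and 21.7% lower. Among the higher members, Ndufa6 stood at 991 against 322 CPM (3.08-fold higher) and Cox8a at 1438 against 714 CPM (2.02-fold), and Uqcrfs1 (1.99-fold) and Uqcrq (1.91-fold) were under the limit. Lower were Cox6b2, with 15 UMIs (10.4 CPM) against 41.4 CPM (4.00-fold lower, 2.34 to 7.36), Ndufaf2 (2.38-fold lower) and Ndufaf7 (2.13-fold lower), followed by Cox6c (1.5-fold) and Atp5g2 (1.47-fold). Cox6b2 was thus low in both cultures, at 1.05% and 0.722% of the UMIs of the Cox6b pair, and Cox8a was high in both. The median log2 ratio was 0.21 over members and -0.24 over all genes.

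**Figure D5:**
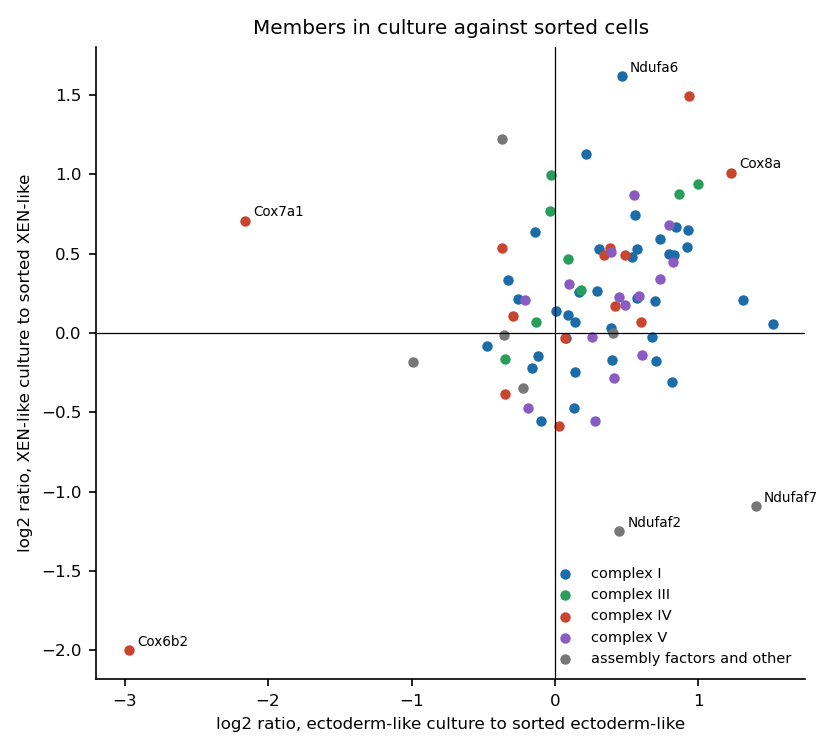
Log2 ratio of each member in the ectoderm-like culture to sorted ectoderm-like cells (horizontal) against the same ratio for XEN-like cells (vertical), for 80 members, coloured by complex; names are given for 6 members described in the text. Cox6b2 is low on both axes and Cox8a high on both, while Ndufaf7, Cox7a1 and Ndufaf2 have opposite signs.

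In SCRB-seq, a well was used as a cell if it had over 2000 UMIs, which left 282 at 0 h, 335 at 6 h, 285 at 12 h, 290 at 24 h, 334 at 36 h, 277 at 48 h, 273 at 60 h, 235 at 72 h and 137 at 96 h of 384 wells each. The same 384 well names recur in all 9 plates, so they name a position and not a cell. Summed over the cells of a time, the members took 1.98% of UMIs at 0 h, 1.86% at 6 h, 1.77% at 12 h, 1.69% at 24 h, 1.74% at 36 h, 1.64% at 48 h, 1.51% at 60 h, 1.71% at 72 h and 1.57% at 96 h. This decline, unlike the bulk values, followed time: r = -0.80 (exact permutation test over 9 times, p = 0.00961, adjusted over 5 relations 0.0160), rho = -0.83 (p = 0.00827, adjusted 0.0135), and r = -0.70 without the 2 farthest times. Complex IV (r = -0.82, exact permutation p = 0.00588, adjusted 0.0150, rho = -0.83, r without the 2 farthest times -0.61) and complex V (r = -0.83, exact permutation p = 0.00600, adjusted 0.0150, rho = -0.92, r without the 2 farthest times -0.81) followed time as well. For complex III the rank correlation passed (rho = -0.82, exact permutation p = 0.0108, adjusted 0.0135) and Pearson's r did not (-0.55, p = 0.124, adjusted 0.155). Complex I passed by neither (r = -0.28, exact permutation p = 0.482, adjusted 0.482, rho = -0.15, p = 0.708, adjusted 0.708). Whether the difference between SCRB-seq and bulk slopes exceeds error was not tested. The SCRB-seq totals include Rn45s, which was left out of the bulk totals, so that the shares of both kinds of data have unlike totals. The share of cytosolic ribosomal protein genes went from 18% to 11.5% in the same cells.

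From 0 h to 96 h the log2 ratio of the SCRB-seq share was -0.33 (95% interval of counting error -0.36 to -0.30), with -0.66 for complex IV, -0.24 for complex V, -0.17 for complex I and -0.06 for complex III, the last with an interval that includes 0 (-0.16 to 0.04). With each cell given the same weight the ratio was -0.22. Of 73 members with at least 50 UMIs at one of the times, 4 were at least 2-fold higher and 6 lower, where 14.5% of all genes were higher and 19.6% lower. Cox7a1 had 54 UMIs at 0 h (28.7 CPM), 89 at 6 h, 76 at 12 h, 47 at 24 h, 111 at 36 h, 24 at 48 h, 19 at 60 h, 6 at 72 h and 0 of 726759 UMIs at 96 h. The totals differ between times, and 111 of 2443202 UMIs at 36 h was a larger share than 54 of 1884093 at 0 h. In bulk, by contrast, Cox7a1 was lower at 36 h than at 0 h. Against the 4.13 CPM that 3 UMIs would give at 96 h it was at least 6.94-fold lower than at 0 h, and the exact 95% interval, which also counts the error of the 54 UMIs, reaches down to 5.46-fold. Ndufb4 went from 356 to 120 CPM (2.97-fold lower, 2.37 to 3.76), and was at 178 CPM by 12 h. Cox6b2 went from 94.5 to 35.8 CPM (2.64-fold lower) and was already at 29.7 at 6 h, Atp5g1 from 464 to 190 (2.44-fold lower), and Ndufb5 from 244 to 106 (2.30-fold lower). The higher members were Ndufb2 (45.6 to 144 CPM, 3.17-fold), Ndufb6 (104 to 285, 2.74-fold), Ndufa8 (2.29-fold) and Uqcr11 (2.13-fold), with Ndufc2 next (1.76-fold). Ndufb6 was between 78.2 and 121 CPM at all times before 96 h. The bulk time course did not show changes of this size. There the highest level was 1.60 times the lowest for Ndufb2, 1.19 for Ndufb6, 1.68 for Ndufa8, 1.29 for Uqcr11 and 1.21 for Ndufb5. The plate of 96 h had the fewest cells, and each time is 1 plate.

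After each cell was thinned to 2000 UMIs, the members' sum had a mean of 29.97 to 36.4 UMIs a cell and a Fano factor (variance over mean) of 1.94 at 6 h to 3.12 at 48 h, where draws with 1 fixed share would give about 0.98. For ribosomal protein genes the Fano factor was 7.20 to 11.7. The correlation of both sums over cells ranged from 0.36 at 96 h to 0.62 at 48 h, given as a description, since all cells of a time share a plate. Of the 829 most variable genes, those with the highest coefficient of variation for their mean, none was a member, although 85 members were among the 16583 genes considered.

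At 96 h the cells were split by k-means on these variable genes into 64 cells richer in XEN markers (19762 CPM, against 7865 in the others) and 73 other cells, the latter richer in ectoderm markers (2643 against 1116 CPM). The clusters keep no cell type name here because few of their 10 leading genes are markers. Those of the first hold 2 XEN markers beside the pluripotency genes Dppa5a and Klf4, and those of the second 1 ectoderm marker. Pluripotency markers summed to 1149 CPM in the first and 755 CPM in the second, and their part in the values below was not tested. Their members' shares were 1.61% and 1.54%, a log2 ratio of 0.07 (95% interval of counting error 0.015 to 0.12), with 0.13 for complex V (0.042 to 0.23) and intervals that include 0 for the complexes I, III and IV. With k-means on log2 values, which kept 109 of the 137 cells on the same side, the log2 ratio was 0.35. Of 53 members with enough UMIs none was 2-fold higher or lower, where 4.58% of all genes were higher and 6.71% lower. The largest ratios upward in the cells richer in XEN markers were those of Ndufa1 (1.76, 1.14 to 2.74), the ATP synthase subunit Atp5d (1.73), Ndufa4 (1.55), Ndufa13 (1.48) and Uqcrfs1 (1.34), and downward those of Ndufa11 (0.582), the core protein Uqcrc2 (0.621), Ndufc2 (0.673), Ndufs4 (0.694) and Ndufa10 (0.702). All cells came from 1 culture, so that no test was run.

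In SMART-seq2, the members' mean share of summed RPKM was 4.01% at 0 h (SD over 82 cells 0.35), 3.74% at 12 h (86 cells, 0.58), 3.71% at 24 h (89 cells, 0.44) and 3.55% at 48 h (82 cells, 0.73). Complex IV went from 1.16% to 0.968%, complex V from 1.14% to 0.940% and complex III from 0.528% to 0.443%, whereas complex I stood at 1.11% and 1.13%. The SD over cells at 0 h and 48 h was 0.132 and 0.194 for complex V, 0.131 and 0.270 for complex IV, and 0.0783 and 0.0927 for complex III. These SDs describe the spread of cells within 1 culture and are no error for a difference between times. Each time is 1 culture, so that no test was run. Cox7a1 was at a mean of 211 on the same scale at 0 h, 98.3 at 12 h, 137 at 24 h and 54.3 at 48 h, and was above 0 in 87.8%, 72.1%, 93.3% and 39% of the cells. Its counterpart Cox7a2 stood at 500, 492, 488 and 504. Atp5g1 went from 789 at 0 h to 461 at 48 h, while Atp5g2 had 600 and 582. Cox8c was listed at 0 in all cells of 0 h and above 0 in 2, 4 and 6 cells at 12 h, 24 h and 48 h, and Cox8b was listed at 0 in every cell. In all 3 kinds of data, then, Cox7a1 was lower at 48 h than at 0 h. The courses before 48 h differed, since at 36 h Cox7a1 was above its level at 0 h in SCRB-seq and below it in bulk.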

How the data were processed

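Bulk libraries and SCRB-seq wells were deposited as UMI counts per gene, and SMART-seq2 cells as RPKM. For the counts, the authors aligned reads with bwa to mouse RefSeq mRNAs (mm10), filtered on base quality of barcode and UMI, and counted each UMI once for a gene and library or well, without normalization. For the RPKM values, the authors used TopHat, Cuffquant and Cuffnorm, and the depth behind them is unknown. How reads that match several near-identical copies of a gene were treated is not given in the sources used here, and values of members with such copies are uncertain to that degree. Mitochondrially encoded subunits were not analysed here.

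Gkn2 and Rn45s, the 2 bulk genes with damaged values, were left out of all bulk libraries, and the SMART-seq2 values below 1 that were stored as text were read as 0. Rn45s stayed in the SCRB-seq totals. Groups of 2 libraries were compared with edgeR 4.0.16 (R 4.3.3, TMM scaling, filterByExpr defaults, quasi-likelihood test on 6 libraries with a common biological coefficient of variation of 0.247, Benjamini-Hochberg adjustment over 8945 genes, threshold 0.05), with DESeq2 1.42.0 as an alternative. GEO's labels call the sorted pairs biological replicates and mark the second mESC library as rep2. The authors describe the replicates of mESCs and of both sorted lineages as biological. The p-values measure the spread between these libraries. Single libraries were compared by the ratio of CPM values for genes that reached 50 UMIs in either, with exact binomial 95% intervals, and counts under 3 were raised to 3 before a 2-fold change was called. Intervals and floors cover counting error only. Correlations with time were tested two-sided by permuting times, all orders for 9 times and 100000 for 10. SCRB-seq wells needed over 2000 UMIs, and doublets were not called because 1 cell was sorted to a well. The variable genes were the top 5% by coefficient of variation relative to a running mean over 100 genes of like level, and k-means (2 clusters, 50 starts) used correlation distance. On simulated counts with 200 changed genes, the edgeR step recovered 58% for ectoderm-like cells against mESCs (8521 genes), 54.5% for XEN-like cells against mESCs and 56% between the lineages (8438 genes each), and 97%, 93% and 93% of 4-fold but only 19%, 16% and 19% of 2-fold changes. False calls numbered 5, 3 and 9 in the same order. The simulation gave every gene the same spread and changed only genes above a minimum level, so that these rates need not hold for single members.

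The members, gene lists and tests were chosen with earlier results of these data known. The text names the members past the threshold (at most 10 in each direction with values), the 3 most abundant of each complex, the 5 with the largest ratio in each direction between single libraries of different conditions, and the paralogues of complexes IV and V. Genes of the other lists are named where they passed. The values of 1 member are not reported here. The members given for their range over time, the Cox7a1 course over the gates, and the members given for SMART-seq2 were picked with their values in view. The remaining steps used Python 3.11.15 with pandas 2.3.3, numpy 2.4.6, scipy 1.17.1 and matplotlib 3.10.9.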

Additional observations from a re-analysis of the deposited data

Results flagged for a closer look

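The changes of 2 members in culture had opposite signs in the lineages, and this is what brought them here. Cox7a1 had 2 UMIs in the ectoderm-like culture against 8 and 8 in the sorted ectoderm-like libraries, a log2 ratio of -2.16 with the libraries pooled, and 17 UMIs in the XEN-like culture against 15 and 7 in the sorted XEN-like libraries, a log2 ratio of 0.71 whose counting interval includes no change (ratio 1.63, 0.815 to 3.22). Ndufaf7 was higher in the ectoderm-like culture, at 55.1 CPM against 20.01 and 21.97 CPM in the sorted libraries (log2 ratio 1.40), and lower in the XEN-like culture, at 16.6 CPM against 27.9 and 48.3 CPM (log2 ratio -1.09). Each culture is 1 library, and the difference between the lineages was not tested.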

How the results depend on the processing

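The fit without TMM factors, like SCRB-seq totals without Rn45s and the culture ratios without ribosomal protein genes, was added after seeing the data. In it, the 13 members called in ectoderm-like cells against mESCs became 6. Leaving out each library in turn gave 2 to 12 for this comparison, 2 to 6 in place of 7 for XEN-like cells against mESCs, and 0 to 1 in place of 1 between the lineages. The log2 ratio of shares between the lineages, 0.21, had a range of 0.13 to 0.29 in the same way. Replicate numbers of the sorted lineages are shared, but no label pairs them, and with 2 pairs the data cannot show it (deviations of same-numbered libraries had a Pearson correlation of 0.42 over 5571 genes). With the replicate block 23 members were called between the lineages, 21 of them higher in XEN-like cells. For the ratio of shares the block gives 0.21 by construction. Without ribosomal protein genes in the totals, the log2 ratio of shares was -0.19 in place of -0.04 for bulk 96 h against 0 h, -0.44 in place of -0.33 for SCRB-seq, and -0.10 in place of 0.07 between the cultures, which without the 20 most abundant genes of each library became 0.23. For the XEN-like culture against sorted XEN-like cells it was 0.067 in place of 0.25. The SCRB-seq ratio was -0.22 as a mean of cells and -0.38 with cells of more than 4000 UMIs, and that of the 96 h clusters was 0.16 as a mean of cells and 0.35 with k-means on log2 values, in place of 0.07. The bulk correlation of complex IV with time, 0.015, was -0.49 without ribosomal protein genes and -0.33 with the second mESC library as 0 h. Over the counts of calls, the shares and the correlations of all members, 59 values under an alternative kept their direction and call, 11 counts were lower and 1 higher by over 1.5 times, 8 moved and 1 changed sign. Over single members and the correlations by complex, 304 values under an alternative kept their direction and call, 52 lost the call, 2 gained it, 21 without a test moved by more than their error, and 2, those of complex IV just given, changed sign. The causes of these shifts were not tested. Depth limits the paralogues with few UMIs: a 2-fold change could be called only at 50 UMIs or more.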
